A study of Drosophila melanogaster with 3 samples.

Results

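Ultraspiracle (USP) occupancy was examined at the transfer RNA (tRNA) genes of Drosophila melanogaster. The members were the genes of biotype tRNA in the Ensembl annotation on the arms 2L, 2R, 3L, 3R, 4 and X, 290 of 17683 genes. They fell on 2R (98), 3R (79), 3L (48), 2L (41) and X (24), with none on 4. A gene was called bound when a peak summit lay within 500 bp of it. The measurements were ChIP-seq (sequencing of immunoprecipitated chromatin) with a GFP antibody on whole larvae at the third instar, in the wandering stage, males and females pooled. The strain, usp-GFP, stably expressed usp with eGFP at the C terminus, and the labels do not say whether this was an added copy. The single group held 3 biological replicates. Each peak call also used a control alignment, per the file headers. ChIP of an untagged strain was not analysed here, so signal that does not depend on USP was not tested. The whole animal was the sample, so occupancy in separate tissues cannot be told apart.

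The peak lists comprised 1 list for each replicate, 1 list from pooled data and 1 list labelled optimal IDR-thresholded, where IDR is the irreproducible discovery rate. Per the headers, the pooled and the IDR-thresholded lists derived from replicates 2 and 3. The IDR-thresholded list held 11195 peaks. Each replicate's list of 30000 peaks was shortened to the 11195 with the greatest signal, to match. Read depth was unknown from these files. Values given as mean ± SD are over these 3 cut lists (n = 3) and cover the spread between replicates. With a single group, no test over samples was possible, and counts are set beside the background measured by the same rule.

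tRNA genes are short genes transcribed by RNA polymerase III. Their promoter lies inside the transcribed part, in 2 blocks named the A box and the B box, which the factor TFIIIC recognises before TFIIIB is placed upstream of the start and recruits the polymerase. A run of T after the gene ends transcription. USP is related to the RXR nuclear receptors of vertebrates. It acts with EcR as the receptor of ecdysone, which ends larval growth, and is best known at genes transcribed by RNA polymerase II.

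The annotated tRNA genes ran from 71 to 186 bp, with a median of 73 bp. Many were copies of each other. There were 95 distinct sequences among the 290 genes, 52 genes had a sequence of their own, and the other 238 genes formed 43 families of identical copies with up to 13 members. A gene each from 3 families that differed in occupancy is shown, to let the sequences be compared. Each sequence is written along the gene's strand, and capitals mark a match to the A box consensus and to the core of the B box, GTTCNANNC. The first belongs to an aspartate family with 3 of 12 copies bound, the second to an alanine family with 4 of 11 copies bound, and the last to a glutamate family with 0 of 9 copies bound. In the alanine gene only the A box matched, and in the glutamate gene only the B box core matched.
tRNA:Asp-GTC-1-1 (chr2L:5241106-5241177, minus strand, dm6): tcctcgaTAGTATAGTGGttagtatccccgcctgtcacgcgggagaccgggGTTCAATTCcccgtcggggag
tRNA:Ala-AGC-2-1 (chr3L:8028546-8028618, minus strand, dm6): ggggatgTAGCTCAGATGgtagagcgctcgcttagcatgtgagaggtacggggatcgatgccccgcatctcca
tRNA:Glu-CTC-3-1 (chr3L:1379934-1380005, plus strand, dm6): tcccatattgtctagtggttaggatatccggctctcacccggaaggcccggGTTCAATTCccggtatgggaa

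Strong summits lay beside tRNA:Leu-CAA-2-3 and tRNA:Lys-TTT-1-1, single genes with a sequence of their own. For both, the sequence from the gene to the summit is shown along the gene's strand, with the gene in capitals and the summit at the end away from it. In the leucine gene the summit was the first base printed, 123 bp upstream of the gene. In the lysine gene the summit was the last base printed, 114 bp downstream, and a run of T follows the gene.
tRNA:Leu-CAA-2-3 (chr3R:23601333-23601578, minus strand, dm6): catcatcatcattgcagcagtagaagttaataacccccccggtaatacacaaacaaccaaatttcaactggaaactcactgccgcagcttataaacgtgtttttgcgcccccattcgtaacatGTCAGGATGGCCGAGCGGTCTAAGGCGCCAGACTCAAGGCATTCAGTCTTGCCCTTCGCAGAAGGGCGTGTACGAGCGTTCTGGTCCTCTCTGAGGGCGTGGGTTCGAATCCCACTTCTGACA
tRNA:Lys-TTT-1-1 (chr2L:8290727-8290913, plus strand, dm6): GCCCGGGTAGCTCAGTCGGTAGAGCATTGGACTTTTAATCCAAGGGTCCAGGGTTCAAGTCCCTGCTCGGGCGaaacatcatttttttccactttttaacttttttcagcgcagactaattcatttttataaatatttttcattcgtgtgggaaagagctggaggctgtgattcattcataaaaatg

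USP summits lay at 79 of the 290 tRNA genes (27.2%). An interval of the same length placed at every position of the 6 arms had a summit within 500 bp in 7.61% of placements, and all 17683 genes, most of them far longer, did so in 32.3% of cases. The replicates' own lists gave 84, 97 and 80 bound tRNA genes in replicates 1, 2 and 3 (87 ± 8.89, SD, n = 3). The shares of all positions in these lists were 7.43%, 7.46% and 7.66%, and those of all genes 32.2%, 30.9% and 33.3%. Replicate 1, from which the IDR-thresholded list was not derived, lay between replicates 2 and 3. The count depended on how many peaks were admitted: 38 tRNA genes were bound by the 5597 strongest IDR-thresholded peaks, and 159 by the whole pooled list, in which 17.4% of positions and 46.0% of all genes had a summit. The background for the 5597 peaks is not given here. The farthest summit of a bound gene lay 451 bp away, at tRNA:Ile-AAT-1-7, and the nearest summit of an unbound gene lay 528 bp from tRNA:Leu-CAG-1-7.

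Neighbouring tRNA genes share summits, so genes are not independent of each other. The 79 bound genes were reached by 59 summits in 53 intervals, and the replicates had 65, 70 and 55 such summits (63.3 ± 7.64). These were 0.527% of all IDR-thresholded summits, whereas the windows around the tRNA genes cover 0.174% of the arms. The density was 0.253 summits per kb around tRNA genes (0.271 ± 0.0327 in the replicates) and 0.0836 per kb over the arms. In each replicate it was higher around tRNA genes.

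Among other small RNA genes, the spliceosomal and related snRNA genes were bound in 8 of 32 cases (25%; 22.9% ± 1.80). They included snRNA:U6:96Ab and snRNA:U6:96Ac, 2 of the 3 genes for the U6 RNA, which is made by polymerase III, and snRNA:7SKa. MicroRNA genes were bound in 34 of 260 cases (13.1%; 12.8% ± 1.11), and small nucleolar RNA genes in 32 of 269 cases (11.9%; 11.6% ± 0.215). RNaseMRP:RNA had a summit. RNaseP:RNA and both 7SLRNA genes had none. No summit of the IDR-thresholded list or of a replicate lay at the 96 genes for 5S ribosomal RNA, another polymerase III product, which form a tandem array of near-identical copies. The tRNA share lay above those of microRNA and small nucleolar RNA genes by more than the spread between replicates.

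**Figure D1:**
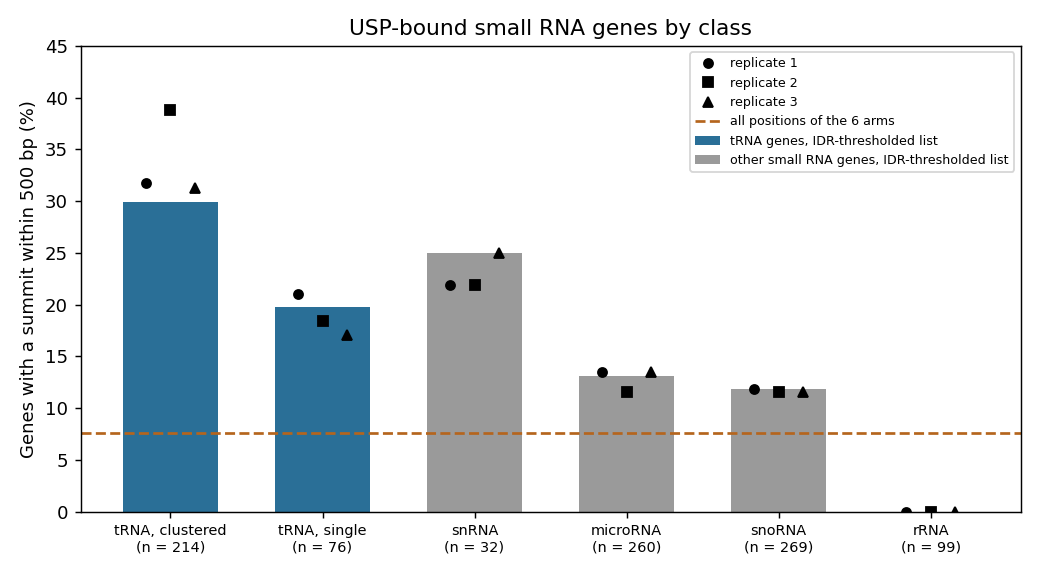
Share of genes with a USP summit within 500 bp (y axis, percent), for clustered and single tRNA genes and 4 other classes of small RNA genes. Bars are the IDR-thresholded list, points the 3 replicates' cut lists, and the dashed line the 7.61% of all positions; clustered tRNA genes stand highest in each replicate, and rRNA genes are at 0.

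Coding promoters hold many USP summits, so tRNA genes were divided by distance to the nearest transcription start site (TSS) of a protein-coding gene. Up to 500 bp from such a TSS 17 of 33 tRNA genes were bound (51.5%), against 24.0% of all positions in that class. Over 500 and up to 1000 bp 17 of 47 were bound (36.2%), against 10.3%, and over 1000 and up to 2000 bp 18 of 45 (40%), against 7.94%. Over 2000 and up to 5000 bp 13 of 55 were bound (23.6%), against 6.24%, and beyond 5000 bp 14 of 110 (12.7%), against 3.28%. In every class the tRNA share was above that of all positions.

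Of the 210 tRNA genes over 1000 bp from a coding TSS, 45 were bound (21.4%), against 4.79% of such positions. The replicates gave 23.8%, 29.0% and 22.4% (25.1% ± 3.51), against 4.72% ± 0.0737 of such positions. At the same distance 11 of 180 small nucleolar RNA genes were bound, or 6.11% (7.04% ± 0.642), and 15 of 194 microRNA genes, or 7.73% (7.90% ± 0.787). The snRNA genes at this distance were bound in 6 of 26 cases, or 23.1% (20.5% ± 2.22), close to the tRNA share. With the 5597 strongest peaks the share for tRNA genes was 7.62%, and the share of positions for these peaks is not given here. With the whole pooled list it was 51.4% for tRNA genes, against 13.5% of such positions. Position within coding genes made little difference: 42 of 156 intergenic tRNA genes (26.9%), 35 of 127 in introns (27.6%) and 2 of 7 overlapping exons were bound.

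Of the 59 summits at tRNA genes, 17 were also within 500 bp of a coding TSS (28.8%; 25.6% ± 6.11), against 39.5% of all IDR-thresholded summits (39.6% ± 1.12). Of these 17 summits 6 lay nearer to the coding TSS than to the tRNA gene. The median distance of all 59 summits from the nearest tRNA gene was 83 bp (85 ± 4.36). Of the 59 summits 32 lay upstream of the nearest tRNA gene, 4 inside it and 23 downstream. For the 79 bound genes the nearest summit was upstream in 47 cases, inside in 4 and downstream in 28, and it lay within 100 bp of the gene in 36 cases and within 250 bp in 66.

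**Figure D2:**
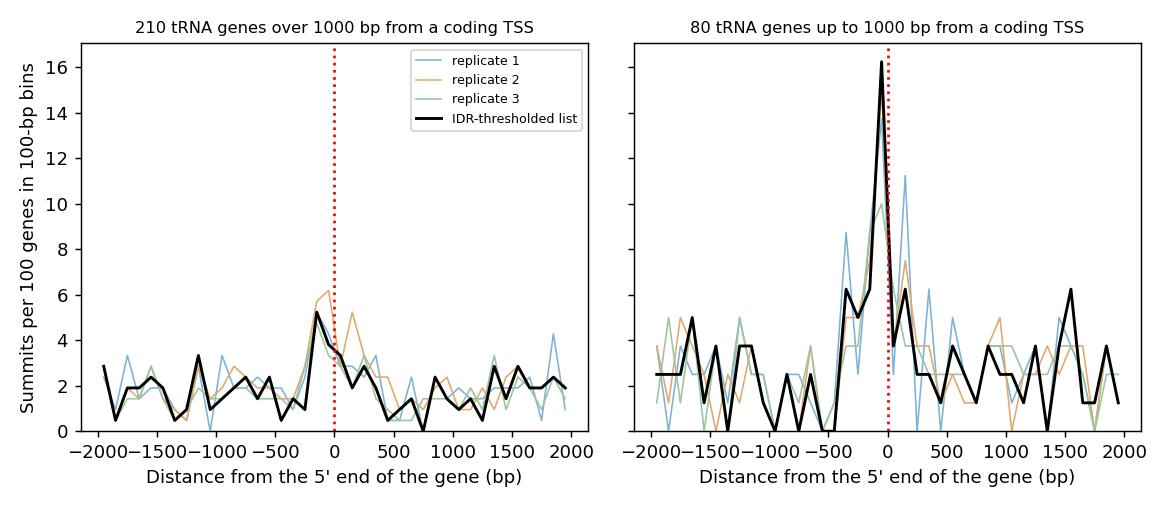
Summits per 100 tRNA genes (y axis) in 100-bp bins by distance from the 5′ end of the gene along its strand (x axis, bp), for the 210 genes over 1000 bp from a coding TSS and the 80 nearer ones. The IDR-thresholded list (black) reached 5.24 per 100 genes in the bin centred 150 bp upstream of the far genes and 16.2 in the bin centred 50 bp upstream of the near ones; a summit is counted once for each gene it lies near.

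Clustered and single genes were compared next. Chains of tRNA genes with gaps of at most 5000 bp formed 144 loci, 68 of them with 2 to 11 genes. Of 214 clustered genes 64 were bound (29.9%), and of 76 single genes 15 (19.7%). The difference of 10.2 percentage points was 10.7, 20.4 and 14.2 in replicates 1, 2 and 3 (15.1 ± 4.88), with the clustered share higher in all. It was 3.49 with the 5597 strongest peaks, 20.8 with the whole pooled list, 5.88 with a window of 250 bp and 16.1 with a window of 1000 bp. Among peaks also strong in the other replicates it was 6.64 without replicate 1, 6.26 without replicate 2 and 5.41 without replicate 3.

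The contrast was uneven over distance. It was widest at over 500 and up to 1000 bp, where 16 of 36 clustered genes and 1 of 11 single genes were bound, and at over 1000 and up to 2000 bp, with 15 of 33 and 3 of 12. Over 2000 and up to 5000 bp 10 of 40 clustered and 3 of 15 single genes were bound. Up to 500 bp the counts were 13 of 26 clustered and 4 of 7 single genes, and beyond 5000 bp 10 of 79 and 4 of 31, or 12.7% and 12.9%. In this last class clustered genes were bound in 10, 20 and 10 cases in the replicates and single genes in 4 cases in each; only replicate 2 had the higher clustered share there. Over 1000 bp from a coding TSS, 35 of 152 clustered genes (23.0%; 28.1% ± 4.76) and 10 of 58 single genes (17.2%; 17.2% ± 1.72) were bound.

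**Figure D3:**
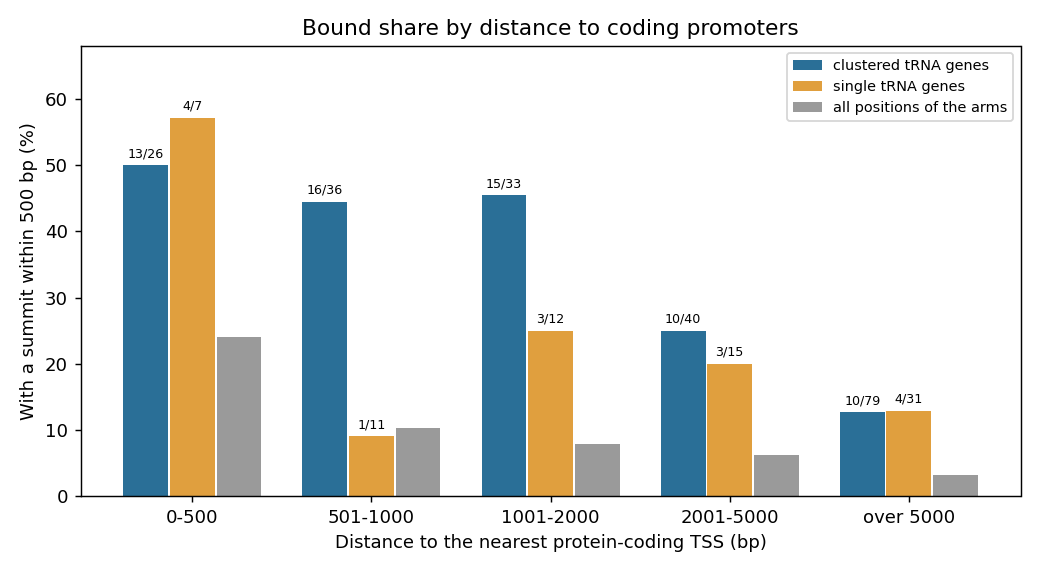
Share with a USP summit within 500 bp (y axis, percent) by distance to the nearest coding TSS (x axis, bp), for clustered and single tRNA genes and all positions of the arms, in the IDR-thresholded list. Numbers over the bars are bound genes of all genes in the class; both kinds of tRNA gene reach about 12.7% to 12.9% beyond 5000 bp, against 3.28% of positions.

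By locus, 26 of 68 clusters (38.2%; 43.6% ± 4.49) and 15 of 76 single genes (19.7%; 18.9% ± 2.01) held a summit, 41 of 144 loci in all (44 ± 3.61 in the replicates). The share was 28.9% for loci of 2 genes, 45% for 3 or 4 and 60% for 5 or more (6 of 10 loci). A longer locus offers a longer window, so the density of summits was set beside it. It was 0.277 per kb around clustered genes (0.306 ± 0.0429) and 0.208 around single ones (0.208 ± 0.0244). Over 1000 bp from a coding TSS it was 0.211 around clustered genes (0.245 ± 0.0522) and 0.176 around single ones (0.203 ± 0.0245). In replicate 1 these far densities were nearly equal, 0.230 around clustered and 0.224 around single genes. All genes were bound in 10 of the 26 bound clusters, and in none of those with 5 or more genes.

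The 5 largest loci differed from each other. On 2R from 13430282 to 13432794, in an intron of ATP8A, 5 isoleucine and 2 leucine genes had 3 summits, 6 of the 7 genes were bound, as in each replicate, and the strongest summit stood at rank 2980 of 11195. These 3 summits lay 48, 1147 and 411 bp from a coding TSS, the last of them the strongest. On 2R from 19725620 to 19728958, 11544 bp from the nearest coding TSS, 5 glutamate and 2 initiator methionine genes had 4 summits, with 6 of 7 bound; in replicates 1, 2 and 3 the bound genes were 4, 6 and 6. On 3R from 17617761 to 17631750, 4 of 11 genes were bound, as in each replicate, with a best rank of 3425. On X from 14014814 to 14017284, a locus of 5 arginine and 2 serine genes had no summit in the IDR-thresholded list or in any replicate, and 4 bound genes in the whole pooled list.

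The fifth locus, with 11 genes for lysine, arginine, asparagine and isoleucine on 2R from 6161535 to 6171759, overlaps EcR, the gene of USP's partner. It had 1 weak summit, at 6166099 and rank 9534, beside tRNA:Lys-CTT-1-4 and tRNA:Ile-AAT-1-1. Replicates 1 and 3 had it as well, and replicate 2 had its only summit at another place, 6162477, rank 11039.

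Signal is the authors' score per peak and was used for ranks within a list. tRNA:Leu-CAA-2-3, a single leucine gene with an intron, had the strongest summit of all tRNA genes. The gene lay 2299 bp from the nearest coding TSS, that of CG10183, and the summit lay on 3R at 23601578. Its signal was 6565 in the IDR-thresholded list, rank 249, and 1948, 1938 and 2825 in replicates 1, 2 and 3, ranks 277, 207 and 234. All 3 replicates placed it far ahead of the next tRNA gene.

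The next summit, rank 1024, lay 192 bp downstream of tRNA:Ala-TGC-2-1 on 2R, and stood at 1369, 689 and 1080 in the replicates. Rank 1172 on 2L at 2011110 lay in an intron of CG4238, beside tRNA:Gln-CTG-3-1 and tRNA:Gln-CTG-2-4 (1223, 1044 and 1347 in the replicates). tRNA:Lys-TTT-1-1, alone in an intron of the kinase gene Btk and 6325 bp from its TSS, followed at rank 1512, with signals of 745, 662 and 749 in the replicates. tRNA:Trp-CCA-2-1, alone in an intron of CG15431 and 7822 bp from a coding TSS, had rank 2065, and 2058, 2459 and 2060 in the replicates. These single genes had their summits in the same order in all 3 replicates.

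A cluster of 3 tyrosine genes on 3R, in introns shared by p and CG8036, was bound throughout: tRNA:Tyr-GTA-1-8 at rank 2214, and tRNA:Tyr-GTA-1-6 and tRNA:Tyr-GTA-1-7 at a shared summit of rank 3011. Both summits were also near a coding TSS. The summit of rank 2214 lay 214 bp from one and 230 bp from tRNA:Tyr-GTA-1-8. The shared summit lay 431 bp from one and 91 bp from tRNA:Tyr-GTA-1-6. Other summits at ranks up to 3245 lay at tRNA:Ile-AAT-1-7 with tRNA:Leu-CAA-1-1 (2980), tRNA:Leu-CAG-1-1 (2991), tRNA:Arg-TCT-1-1 with tRNA:Met-CAT-1-1 (3054) and tRNA:Ala-AGC-2-7 with tRNA:Ala-AGC-2-8 (3245). The summit of rank 3425 lay at tRNA:Ala-AGC-2-2, tRNA:Pro-TGG-1-2 and tRNA:Ala-AGC-2-3. That of rank 3934 lay at the single gene tRNA:Leu-AAG-1-1 in an intron of pcs.

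Most summits at tRNA genes were weaker than these. Their median rank was 6486 of 11195, a percentile of 42.1 (41.5 ± 2.19), against 48.0 (47.7 ± 0.369) for summits within 500 bp of a coding TSS. Of the 59, 25 were among the 5597 strongest peaks. Their signal ran from 366 to 6565 with a median of 654, against 746 for all peaks, whose lowest was 365. Taking the strongest summit of each bound gene instead, the median percentile was 49.7. Here a summit shared by several genes counts for each of them, and weaker summits of a gene are left out. The best summits had a median interval width of 470 bp, against 642 bp for all peaks.

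**Figure D4:**
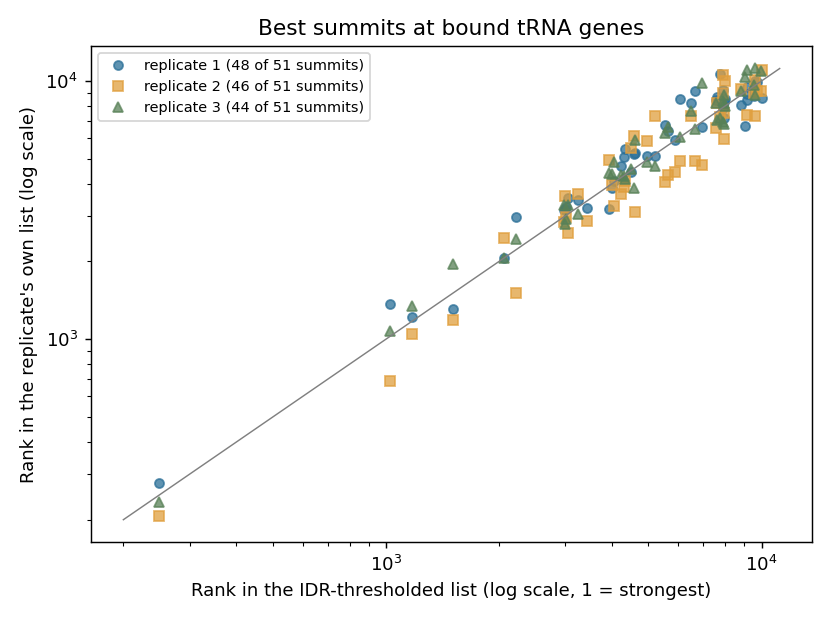
Rank of the 51 best summits at bound tRNA genes in the IDR-thresholded list (x axis, log scale, 1 is the strongest) and in each replicate's own list (y axis, log scale), where a summit lay within 100 bp; the grey line marks equal ranks. Replicate 1 held 48 of them, replicate 2 46 and replicate 3 44, close to the line from the first summit at rank 249 to the weakest beyond 10000.

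The replicates largely called the same tRNA genes. All 3 lists bound 70 genes, 15 genes were bound in 2 lists, 21 in 1 and 184 in none. The 70 shared genes were all bound in the IDR-thresholded list, together with 9 of the 15, and no gene was bound there without at least 2 replicates. That list derived from replicates 2 and 3, so its match with them is partly built in. Of replicate 1's 84 genes, replicate 2 shared 75 (89.3%) and replicate 3 shared 76 (90.5%). Replicate 2 had the most genes, 97, and shared 75 with replicate 1 (77.3%) and 74 with replicate 3 (76.3%). The shared portion over all genes is not given here, so whether tRNA genes were shared more or less than others is unknown. The extra calls of replicate 2 included 4 neighbouring genes near EcR, tRNA:Asn-GTT-1-4 to tRNA:Asn-GTT-1-6 and tRNA:Lys-CTT-1-2, and both tRNA:His-GTG-1-1 and tRNA:His-GTG-1-2. By contrast, 3 serine genes of 1 locus on 3R, tRNA:Ser-GCT-2-4, tRNA:Ser-GCT-1-1 and tRNA:Ser-GCT-2-5, were bound in replicates 1 and 3 but not in replicate 2 or the IDR-thresholded list. Of the 51 best summits, 37 were found within 100 bp in all 3 replicates, 13 in 2 and 1 in 1. Where all 3 had the summit, the largest shift was 34 bp in the median.

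Amino acid families differed in their bound share, though copies within a locus share summits. Tryptophan genes were bound in 6 of 8 cases (75%; 5.67 ± 0.577 genes in the replicates), at 4 loci, and isoleucine genes in 8 of 11 (72.7%; 7.67 ± 0.577), at 5 loci. Initiator methionine genes, which start every protein, were bound in 4 of 6 cases in each list, at 2 loci, and glutamine genes in 6 of 12 (5.67 ± 0.577). Leucine genes, the largest group of bound genes, were bound in 10 of 22 cases (10.3 ± 1.53) at 6 loci.

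At the low end stood arginine with 1 of 26 genes (3.85%; 2 ± 1), lysine with 2 of 19 (2.67 ± 1.15), threonine with 2 of 17 (2.33 ± 0.577), phenylalanine with 1 of 8 in each list and valine with 2 of 15 (3 ± 1). The single selenocysteine gene had no summit.

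**Figure D5:**
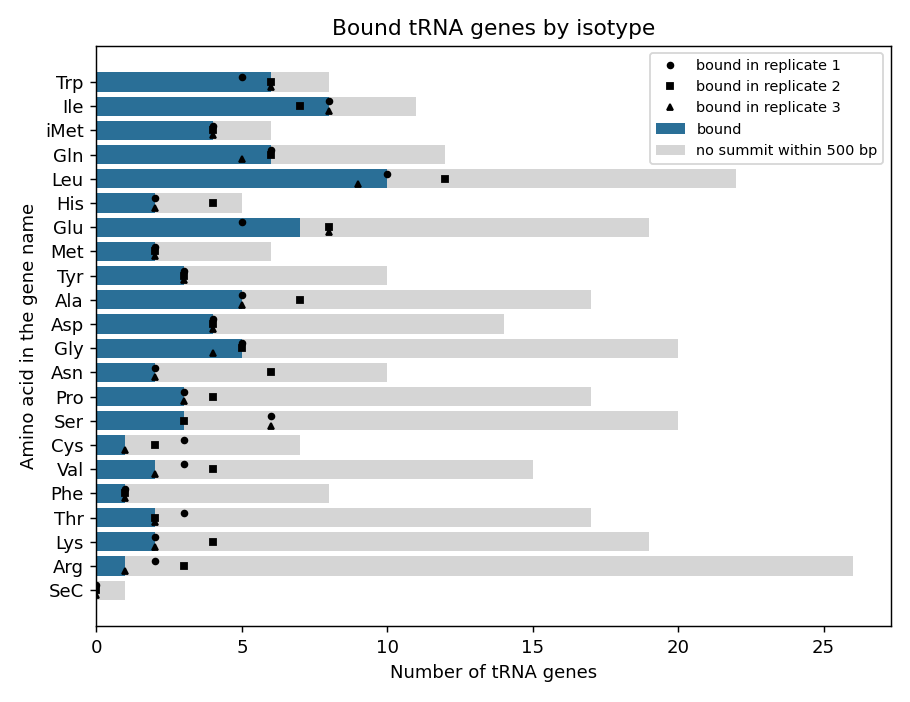
Number of tRNA genes (x axis) by the amino acid in the gene name (y axis; iMet is initiator methionine, SeC selenocysteine), ordered by bound share. Blue is bound and grey has no summit within 500 bp in the IDR-thresholded list, and points give the bound genes in each replicate; tryptophan leads with 6 of 8, and arginine has 1 of 26.

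Genes of identical sequence were not bound alike. Of the 43 families with 2 or more copies, 22 held both bound and unbound genes, 20 held no bound gene and 1 was bound throughout. In 21 families at least 1 copy was bound in all 3 replicates while another was bound in none. The family bound throughout comprised the 6 copies of tRNA:Trp-CCA-2-1, at 4 loci. The 9 copies of tRNA:Ile-AAT-1-1 were bound in 7 cases, and the 13 copies of tRNA:Gly-GCC-1-1 in 4. The glutamate family shown above had none of 9 bound, at 2 loci, and the family of tRNA:Arg-ACG-1-1 none of 10, at 4 loci. That call rests on the window for tRNA:Arg-ACG-1-1 itself, whose nearest summit lay 597 bp away in the IDR-thresholded list and 593 bp away in replicate 3. In replicates 1 and 2 it lay 402 and 413 bp away, with ranks 841 and 1358, and the gene counted as bound; in replicate 1 only tRNA:Leu-CAA-2-3 had a stronger summit.

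Reads from inside identical copies cannot be told apart, and whether such reads were kept in the peak calls is not given in the sources used here, so calls at such genes are uncertain. Genes with a sequence of their own were bound in 20 of 52 cases (38.5%; 38.5% ± 1.92), those with 2 to 4 copies in 8 of 58 (13.8%; 20.1% ± 8.15) and those with 5 or more in 51 of 180 (28.3%; 30.7% ± 2.74). Genes with an annotated intron, a set chosen after the values were seen, were bound in 7 of 16 cases (43.8%) in each list, against 72 of 274 (26.3%; 29.2% ± 3.24) without an intron. Sequences were compared over the whole gene, intron included. The genes with an intron therefore overlap those with a sequence of their own, and the contrasts are not separate.

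By chromosome arm, 39 of 98 tRNA genes on 2R were bound (39.8%; 43.5% ± 5.62), 12 of 41 on 2L (29.3%), 10 of 48 on 3L (20.8%), 16 of 79 on 3R (20.3%) and 2 of 24 on X (8.33%, the same in each replicate). All positions differed less, with 8.14% near a summit on 2R, 7.26% on 2L, 7.95% on 3L, 7.37% on 3R and 7.70% on X. The X share rests on few genes, and in the whole pooled list 11 of the 24 X genes were bound (45.8%), where 17.4% of the positions of all arms had a summit.

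Some tRNA genes close to coding promoters had no summit nearby. Among the 16 unbound genes within 500 bp of a coding TSS, the nearest were tRNA:Tyr-GTA-1-9, which overlaps an exon and a TSS of Ntl, tRNA:Val-AAC-1-1, tRNA:Glu-CTC-3-7, tRNA:Asp-GTC-1-3 and tRNA:Gln-CTG-2-3. Their nearest IDR-thresholded summits lay 8534, 2530, 7758, 2979 and 761 bp away. The whole pooled list had weaker summits 2 bp from tRNA:Asp-GTC-1-3 and 114 bp from tRNA:Gln-CTG-2-3, and none within 1000 bp of the other three.

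Matches to the internal promoter were about as frequent in bound as in unbound genes. The A box consensus matched along the gene's strand in 74 of 79 bound genes (93.7%) and 196 of 211 unbound ones (92.9%), and the B box core GTTCNANNC in 71 (89.9%) and 200 (94.8%). Tiles of 73 bp over the arms, searched on both strands, held them in 5.83% and 2.06% of cases. A longer and stricter B box consensus, which contains the core, was in 37 of 79 bound genes (46.8%), 108 of 211 unbound ones (51.2%) and 0.0247% of tiles.

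Within 100 bp of the 59 summits at tRNA genes, on both strands, GAGAG matched in 14 cases (23.7%), against 34.5% of all 11195 summits. CACACA matched in 6 (10.2%), against 24.8%. The receptor hexamer AGGTCA matched in 2 (3.39%), against 6.24%, and the palindromic ecdysone response element (EcRE IR1) in 1 (1.69%), against 0.447%. The median GC content of these windows was 40.3%, against 44.8% for all summits.

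The EcRE IR1 match is shown in capitals with 8 bases on each side, since it is the only full match at a tRNA summit. It lay 396 bp downstream of tRNA:Thr-AGT-1-7, its centre 30 bp from the summit at 19803195, rank 8012, and 19168 bp separated the gene from the nearest coding TSS, that of Acsx4.
EcRE IR1 at tRNA:Thr-AGT-1-7 (chr3R:19803151-19803179, plus strand, dm6): ttgagtgcAGTTCATTGAACCaaaaatgg

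Protein-coding genes of the polymerase III machinery and of tRNA processing and modification were set beside the tRNA genes. The list also held Myc, Pbp45, Pbp49 and Pbp95. Of 37 listed genes 36 were found, and 10 of them (27.8%) had a summit within 500 bp of a TSS (10 ± 1.73 in the replicates). The same was true of 28.0% of all protein-coding genes, and of 27.9%, 26.1% and 29.3% in replicates 1, 2 and 3, so the list lay at the background. Of 10 polymerase III subunit genes Polr3C, Polr3D and Polr3E were bound, Polr3C not in replicate 1. Polr3G was bound in replicate 3 alone, and Myc in replicate 2 alone. Brf, a subunit of TFIIIB, was bound at rank 5809, and Bdp1, another, at 9948, though not in replicate 2. Trf and Tbp, the TATA-binding proteins, and Maf1, the repressor of polymerase III, had no summit there. Among subunits of RNase P and RNase MRP, which trim the 5′ ends of tRNA and ribosomal RNA precursors, Pop1 (2329), Pop4 (3401), Rpp14a (6668) and Rpp20 (6868) were bound. Rpp14b, Rpp30 and Pop5 were not, and Rpp25 was bound in replicate 3 alone. RNaseZ, which trims the 3′ end, and La, which binds the new 3′ end, had none.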

How the data were processed

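Peak lists in narrowPeak layout on genome build dm6 were used as deposited. Per the file headers, peaks were called on each replicate's alignment, and on pooled alignments of replicates 2 and 3, with a control alignment; which caller and aligner were used is not stated here. The signal the authors deposited per peak is not scaled between libraries and served only to rank peaks within a list. The deposited −log10 q-values were identical across the IDR-thresholded list, so no use was made of them. Summits are the interval start plus the deposited offset, written 1-based. Genes came from Ensembl release 115 (BDGP 6.54), without transposable elements and unnamed entries, and sequence from the RefSeq copy of release 6, which has dm6 coordinates. The 22 mitochondrial tRNA genes were left out. Calls were checked on simulated summits, with python 3.11.15, numpy 2.4.6 and pandas 2.3.3. Named genes were the 15 tRNA genes of highest signal, the 5 strongest single ones over 1000 bp from a coding TSS, the 5 largest loci, genes bound without any replicate (0 found) and the 5 unbound genes nearest a coding TSS; others were chosen after their values were seen. Alternatives were windows of 250 and 1000 bp, other peak lists, cluster gaps and TSS distances. For each replicate left out, the IDR-thresholded peaks also strong in the other replicates were kept, without calling peaks anew. The members and lists were chosen with earlier results of these data known.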

Additional observations from a re-analysis of the deposited data

How the results depend on the processing

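Windows of 250 and 1000 bp, replicate 1 alone and a single summit per interval kept the counts of bound tRNA genes and loci within 1.5 times of 79 and 41. So did intervals that overlap the gene for genes, and other cluster gaps for loci. The 5597 strongest peaks gave 38 genes at 22 loci, and the whole pooled list 159 genes at 76 loci, since fewer or more peaks were admitted. Leaving out a replicate meant keeping the IDR-thresholded peaks also strong in the other replicates. This kept 8729, 9037 and 8450 peaks without replicates 1, 2 and 3, and gave 60 to 65 genes and 33 to 36 loci. Peaks were not called anew, and the IDR-thresholded list was not derived from replicate 1. The clustered minus single difference, 10.2 percentage points, stayed above 0 in all settings run: 3.49 with the strongest peaks, 5.41 to 6.64 without a replicate, 16.1 with 1000 bp and 20.8 with the pooled list. The bound share over 1000 bp from a coding TSS, 21.4%, was 7.62% with the strongest peaks, 15.7% to 16.7% without a replicate, 16.4% with a distance of over 2000 bp, 32.4% with a window of 1000 bp and 51.4% with the pooled list. The share of such positions also rose, from 4.79% in the IDR-thresholded list to 13.5% in the pooled list. In the IDR-thresholded list it was 6.24% over 2000 and up to 5000 bp, and 3.28% beyond 5000 bp. For the other settings the share of positions is not given here, and a window of 1000 bp takes in more positions. The median percentile, 49.7, was 34.3 with the strongest peaks, 45.1 in replicate 1, 46.3 with a single summit per interval, 47.5 to 50.4 without a replicate, 55.8 with 1000 bp and 62.2 with the pooled list. Each percentile is relative to its own list, so values from lists of unlike length are not on the same scale. The set of bound genes differs between settings as well. No paired analysis was possible because the study has a single group. Read depth is unknown.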
